A study of Mus musculus with 12 samples.

Results

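The 10 genes described here, in adult mouse spinal cord, belong to 3 families of proteins that bind sugars or calcium: the galectins Lgals1, Lgals3, Lgals8 and Lgals9, the annexins Anxa1, Anxa2 and Anxa5, and the S100 genes S100a4, S100a6 and S100a11. They were found by the mouse symbol paired with the Ensembl identifier of each count table, and all 10 were present among 54838 genes. RNA was sequenced from P60 spinal cord in 12 libraries, 3 in each of 4 groups. Control mice were Olig1+/+;Tet1 fl/fl (wildtype in the sample labels) and Tet1 mutant mice were Olig1 cre/+;Tet1 fl/fl, so both genotypes carried the floxed Tet1 allele, and Cre was expressed from the Olig1 locus, which is active in the oligodendrocyte lineage. Lesioned tissue was taken 4 days after injection of lysolecithin (LPC), a detergent-like lipid that strips myelin from axons at the injection site (4dpl), and unlesioned tissue came from the uninjected side of the cord. Cell suspensions were enriched for oligodendroglial cells on a Percoll density gradient and were not sorted, so each value is an average over all cells that the gradient retained. In such bulk RNA, fewer cells of a type and less RNA per cell cannot be told apart.

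Galectins are lectins that bind galactose-containing sugar chains on cell surfaces and on damaged endosomes, annexins attach to acidic phospholipids when calcium rises, and S100 proteins are small EF-hand calcium sensors that often bind an annexin partner. Galectin-3, the product of Lgals3, is widely used as a marker of activated, phagocytic microglia and macrophages, and annexin A1, from Anxa1, is abundant in neutrophils and signals through the formyl peptide receptor encoded by Fpr2. Annexin A2, from Anxa2, forms a complex with S100A10, and annexin A5, from Anxa5, binds the phosphatidylserine exposed by dying cells.

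Total counts per library lay between 34805086 and 67251544, and 31109 genes passed the filter on low counts, all 10 of these genes among them. The exonic count of a member in one library was between 154 for S100a4 and 217270 for Anxa1, so the spread between libraries, and not counting error, limited the precision. Tet1 itself was counted at 14.9 to 18.3 CPM (counts scaled to a common library size by the TMM method) in control unlesioned libraries and 9.94 to 16.4 CPM in mutant unlesioned libraries, with 11.7 to 12.5 and 10.9 to 21.5 CPM at 4dpl, so that this count over all exons did not separate the genotype labels. Oligodendrocyte markers (8 genes, none at 0) summed to between 14551 and 68816 CPM and neutrophil markers (7 genes, none at 0) to between 8962 and 49427 CPM, while endothelial markers reached 43.4 and neuronal markers 76.2 CPM at most.

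Per kilobase of exon, S100a11 had the highest mean level of the 10 genes in each of the 4 groups and Anxa1 was among the 3 highest in each. Averaged over the 12 libraries, S100a11 stood at 1129 CPM per kilobase, followed by Anxa1 at 707, Lgals3 at 389, S100a6 at 353, Anxa5 at 209, Lgals1 at 194, Anxa2 at 150.2, Lgals9 at 136, Lgals8 at 18.7 and S100a4 at 13.7. In the control unlesioned group the levels per kilobase were 1468 ± 704 (SD, n = 3) for S100a11 and 708 ± 390.1 (SD, n = 3) for Anxa1, with overlapping ranges. Within each of these libraries S100a11 was the higher, at 1818 against 1124, 1928 against 649 and 658 against 351 CPM per kilobase. S100a6 had 480 ± 207 CPM per kilobase there (SD, n = 3). Its order with Anxa1 was not the same in every library, as S100a6 was higher in replicate 2, at 684 against 649. Lgals8 at 11.7 ± 6.28 and S100a4 at 17.7 ± 3.61 (SD, n = 3) lay far below the other 8 genes. At 4dpl in control the order below S100a11 changed, with Lgals3 second at 670 ± 149 and Anxa1 next at 439 ± 62.1 CPM per kilobase (SD, n = 3). More than 1 gene model covers part of these exons in 3 cases: 302 of the 584 exonic bases of S100a4 are shared with Gm42674 on the same strand, 155 of 3688 bases of Lgals8 with Heatr1 on the opposite strand, and 98 of 3731 bases of Anxa2 with Gm16144 on the opposite strand. Whether the counting used strand is not given in the sources used here, and the S100a4 count in particular may omit reads that fall on both gene models.

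**Figure D1:**
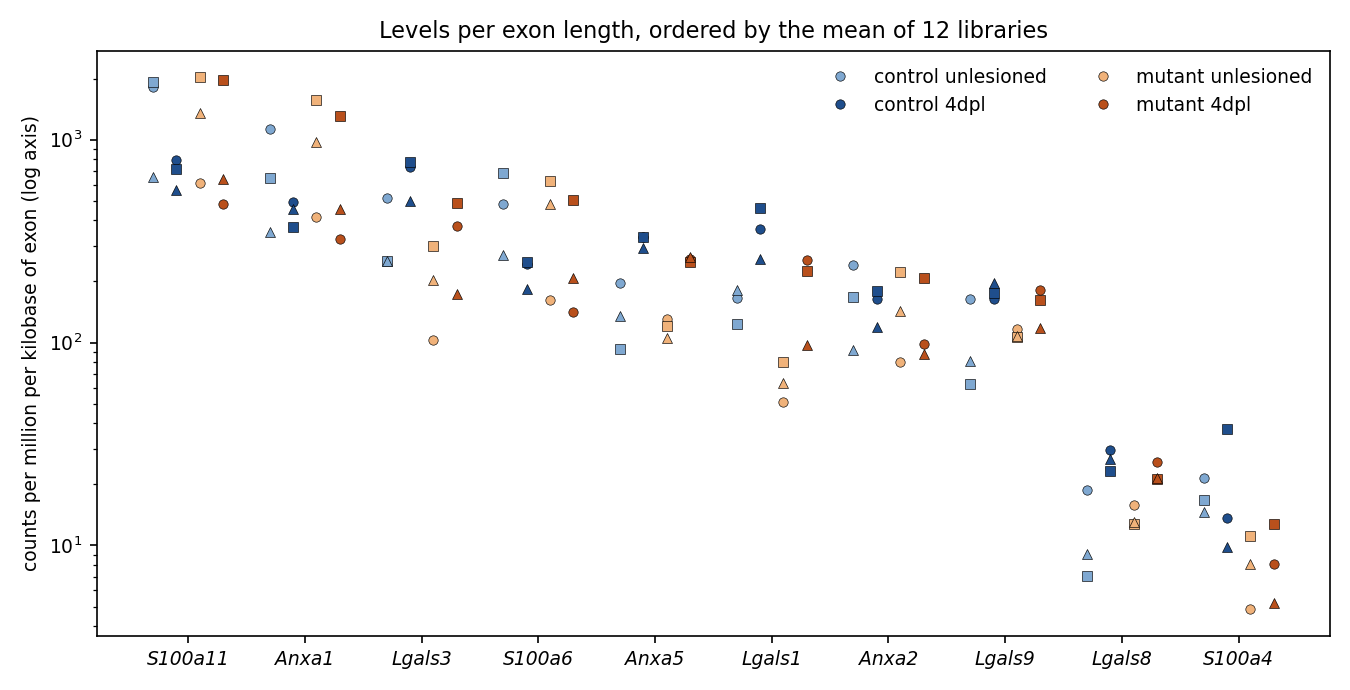
Level of each gene in CPM per kilobase of exon on a log axis, with 1 point per library, coloured by group and shaped by replicate, and genes ordered by the mean of the 12 libraries. S100a11 lies highest at 1129 CPM per kilobase on average, and Lgals8 and S100a4 lie lowest, at 18.7 and 13.7.

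The first question was how the 10 genes differed between lesioned and unlesioned tissue in each genotype. At 4dpl the galectin genes Lgals1 and Lgals8 and the annexin gene Anxa5 rose in control, with fold differences of 2.29, 2.27 and 2.25, and no member fell past the thresholds. Genes were called at a p-value below 0.01 together with a Benjamini-Hochberg adjusted p-value below 0.05 over all genes, by the quasi-likelihood test of edgeR. In control, 3 of the 10 genes were called higher at 4dpl, where 5.12% of all genes tested were called higher, and 0 were called lower, where 5.01% were. In mutant, 0 of the 10 were called, where 0.135% of all genes were called in either direction, and 3 of the 10 had an unadjusted p-value under 0.05, against 33.8% of all genes. Averaged over the genotypes, 3 of the 10 were called higher, against 14.2% of all genes, and 0 were called lower, against 18.6%. The median log2 difference of the 10 genes was 0.50 in control, 0.29 in mutant and 0.40 on average, beside -0.36, -0.18 and -0.28 over all genes tested. Every lesioned library lay above every unlesioned one for 3 of the 10 genes in control, where this held for 16.5% of all genes tested, and for 4 of the 10 in mutant, where it held for 18.8%. The calls depended on single libraries. The number called in control was 0 without any one of control unlesioned replicate 2, control unlesioned replicate 3, control 4dpl replicate 1 or control 4dpl replicate 2, was 1 without mutant unlesioned replicate 3, and was 5 without control unlesioned replicate 1.

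Lgals1 encodes galectin-1, a secreted dimeric lectin (ENSMUSG00000068220, chr15:78926725-78930465 on GRCm38, forward strand). Its level was 150.4, 112 and 164 CPM in control unlesioned replicates 1 to 3 and 327, 414 and 234 CPM at 4dpl. In mutant it was 46.1, 72.4 and 57.0 CPM unlesioned and 230.2, 204 and 88.0 CPM at 4dpl. Within each genotype every lesioned library lay above every unlesioned one, although mutant 4dpl replicate 3 lay below all control unlesioned libraries. The log2 difference was 1.19 ± 0.34 (SE) in control (edgeR, adjusted p = 0.0453) and 1.57 ± 0.35 in mutant (edgeR, adjusted p = 0.0522, above the threshold). Averaged over genotypes it was 1.38 ± 0.24 (edgeR, adjusted p = 0.00317), a fold difference of 2.61 with a 95% confidence interval of 1.81 to 3.75.

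Lgals8 encodes galectin-8, a lectin with tandem sugar-binding domains that marks ruptured vesicles for autophagy (ENSMUSG00000057554, chr13:12439415-12464944, reverse strand). It was at 69.4, 26.1 and 33.5 CPM in control unlesioned tissue and 109, 85.9 and 98.2 CPM at 4dpl. The mutant libraries held 58.1, 47.0 and 48.1 CPM unlesioned and 95.4, 78.5 and 78.9 CPM at 4dpl. All 6 lesioned libraries, from 78.5 to 109 CPM, were thus above all 6 unlesioned libraries, from 26.1 to 69.4 CPM, a separation shown by 2 of the 10 members and by 7.44% of all genes tested. The log2 difference was 1.18 ± 0.30 (SE) in control (edgeR, adjusted p = 0.0370) and 0.72 ± 0.30 in mutant (edgeR, adjusted p = 0.118), and 0.95 ± 0.21 on average (edgeR, adjusted p = 0.00640).

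Lgals3 (ENSMUSG00000050335, chr14:47367751-47386160, forward strand) was at 956, 471 and 467 CPM in control unlesioned libraries and at 1369, 1437 and 927 CPM in control at 4dpl. The mutant libraries had 192, 555 and 378 CPM unlesioned and 697, 902 and 322 CPM at 4dpl. Control unlesioned replicate 1 reached the lesioned range, and mutant 4dpl replicate 3 lay within the unlesioned range, so the groups overlapped in both genotypes. The log2 difference was 0.98 ± 0.45 (SE) in control and 0.77 ± 0.45 in mutant, and on average 0.88 ± 0.32 (edgeR, adjusted p = 0.0403), with an unadjusted p-value that missed its threshold. Lgals9, which encodes galectin-9, the ligand of the receptor TIM-3 (ENSMUSG00000001123, chr11:78962974-78984946, reverse strand), was at 350.2, 133 and 173 CPM in control unlesioned tissue and 349.98, 374 and 421 CPM at 4dpl. In mutant it was at 249.6, 228 and 231 CPM unlesioned and 387, 348 and 253 CPM at 4dpl. The mutant groups did not overlap, while control unlesioned replicate 1 was level with the lowest lesioned control library. Its average log2 difference was 0.64 ± 0.23 (SE; edgeR, adjusted p = 0.0364), also with an unadjusted p-value that missed its threshold. Without control unlesioned replicate 1, both Lgals3 and Lgals9 were called in control and on average. Both were also called on average without mutant 4dpl replicate 3, and Lgals3 without control 4dpl replicate 3 or mutant unlesioned replicate 2.

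Among the annexins, Anxa5 (ENSMUSG00000027712, chr3:36448923-36475894, reverse strand) showed the tightest lesioned groups. It was at 347, 166 and 241 CPM in control unlesioned libraries and 590.2, 589 and 517 CPM in control at 4dpl. Mutant libraries held 231, 214 and 187 CPM unlesioned and 460.2, 441 and 468 CPM at 4dpl. Again all 6 lesioned libraries, from 441 to 590.2 CPM, were above all 6 unlesioned libraries, from 166 to 347 CPM. The log2 difference was 1.17 ± 0.27 (SE) in control (edgeR, adjusted p = 0.0303) and 1.11 ± 0.27 in mutant (edgeR, adjusted p = 0.0544, above the threshold), with an average of 1.14 ± 0.19 (edgeR, adjusted p = 0.00275), a fold difference of 2.21 with a 95% confidence interval of 1.66 to 2.93.

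Anxa1 (ENSMUSG00000024659, chr19:20373428-20390944, reverse strand) was at 2932, 1693 and 914 CPM in control unlesioned tissue and 1285, 967 and 1181 CPM at 4dpl. Its mutant values were 1084, 4074 and 2545 CPM unlesioned and 845, 3402 and 1190 CPM at 4dpl. Both unlesioned groups spanned a wide range that included lesioned libraries, and the log2 difference was -0.69 ± 0.57 (SE) in control, -0.50 ± 0.56 in mutant and -0.60 ± 0.40 on average (edgeR, adjusted p = 0.234). Anxa2 (ENSMUSG00000032231, chr9:69453620-69491795, forward strand) was at 899, 623 and 343 CPM in control unlesioned libraries and 610.2, 668 and 443 CPM in control at 4dpl. Its mutant libraries held 299, 832 and 534 CPM unlesioned and 369, 776 and 327 CPM at 4dpl. These groups overlapped fully, and the average log2 difference was -0.15 ± 0.31 (SE; edgeR, adjusted p = 0.717), with a 95% confidence interval of -0.81 to 0.52. Of the 3 annexins only Anxa5 was called at 4dpl, and the difference between the annexins was not tested.

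S100a6, which encodes calcyclin (ENSMUSG00000001025, chr3:90612882-90624181, forward strand), was at 662, 936 and 369 CPM in control unlesioned tissue and 334, 342 and 251 CPM at 4dpl. In mutant tissue it stood at 222, 853 and 655 CPM unlesioned and 193, 692 and 285 CPM at 4dpl. Every lesioned control library lay below every unlesioned one, which held for 1 of the 10 members and for 21.4% of all genes in that direction, while the mutant groups overlapped. Its log2 difference was -1.09 ± 0.52 (SE) in control (edgeR, adjusted p = 0.154), -0.56 ± 0.51 in mutant and -0.82 ± 0.36 on average (edgeR, adjusted p = 0.0810), none of them called. S100a11, which encodes an S100 protein that binds annexin A1 (ENSMUSG00000027907, chr3:93520488-93526287, forward strand), was at 929, 985 and 336 CPM in control unlesioned libraries and 408, 365 and 289 CPM at 4dpl. In mutant it was at 313, 1036 and 693 CPM unlesioned and 245, 1002 and 325 CPM at 4dpl. The groups overlapped in both genotypes, and the log2 difference was -1.08 ± 0.55 (SE) in control, -0.38 ± 0.54 in mutant and -0.73 ± 0.39 on average (edgeR, adjusted p = 0.136). Without mutant 4dpl replicate 2, S100a6 and S100a11 were both called lower on average, and without mutant unlesioned replicate 1 S100a6 was.

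S100a4, a gene also known in fibroblasts and leukocytes (ENSMUSG00000001020, chr3:90603771-90606045, forward strand), lies on chromosome 3 near S100a6, with S100a5 between them, and had the lowest counts of the 10. It was at 12.6, 9.82 and 8.50 CPM in control unlesioned libraries and 7.97, 21.9 and 5.76 CPM in control at 4dpl. The mutant libraries held 2.84, 6.53 and 4.76 CPM unlesioned and 4.71, 7.46 and 3.06 CPM at 4dpl. Control 4dpl replicate 2 stood apart from the other lesioned control libraries, and the average log2 difference was 0.15 ± 0.34 (SE; edgeR, adjusted p = 0.725), which took the opposite sign, at -0.22, without that library.

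**Figure D2:**
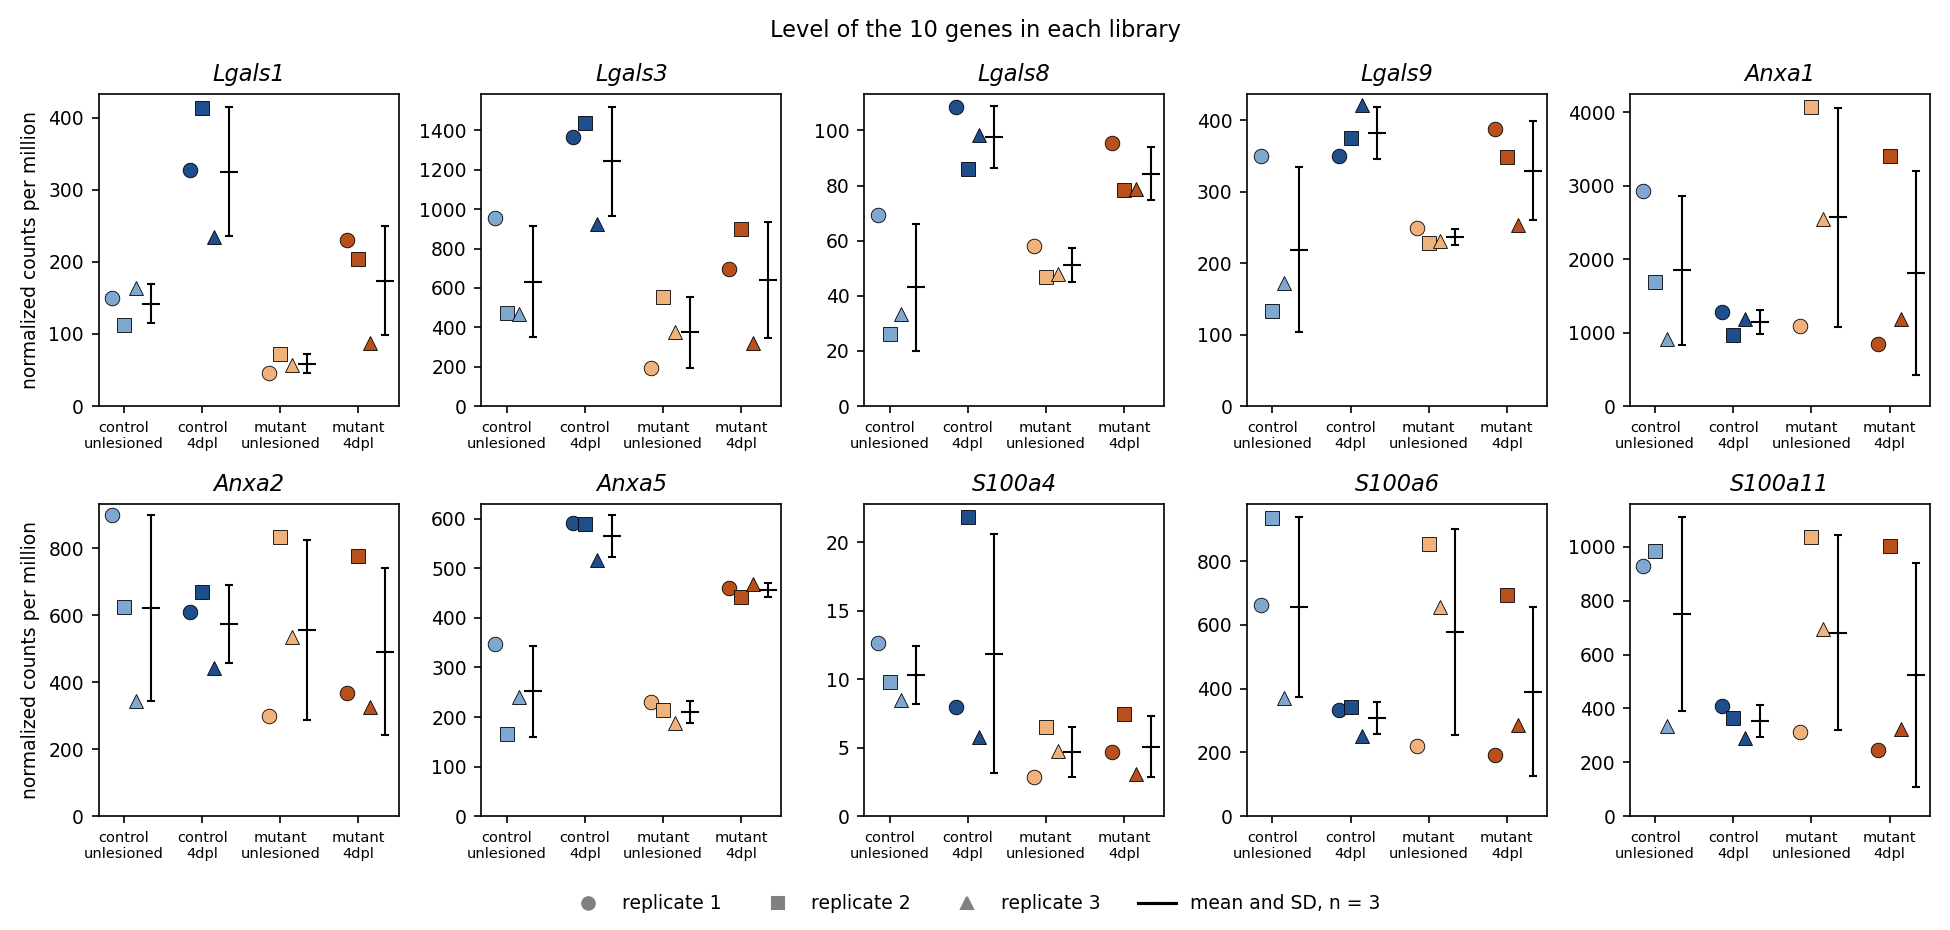
Level of each of the 10 genes in TMM-scaled CPM, 1 panel per gene with its own linear axis from 0, 1 point per library, and the mean with its SD (n = 3) beside each group. All 6 lesioned libraries lie above all 6 unlesioned ones for Lgals8 and Anxa5. Within each mutant group, replicate 2 is the highest library for Lgals3, Anxa1, Anxa2, S100a4, S100a6 and S100a11.

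**Figure D3:**
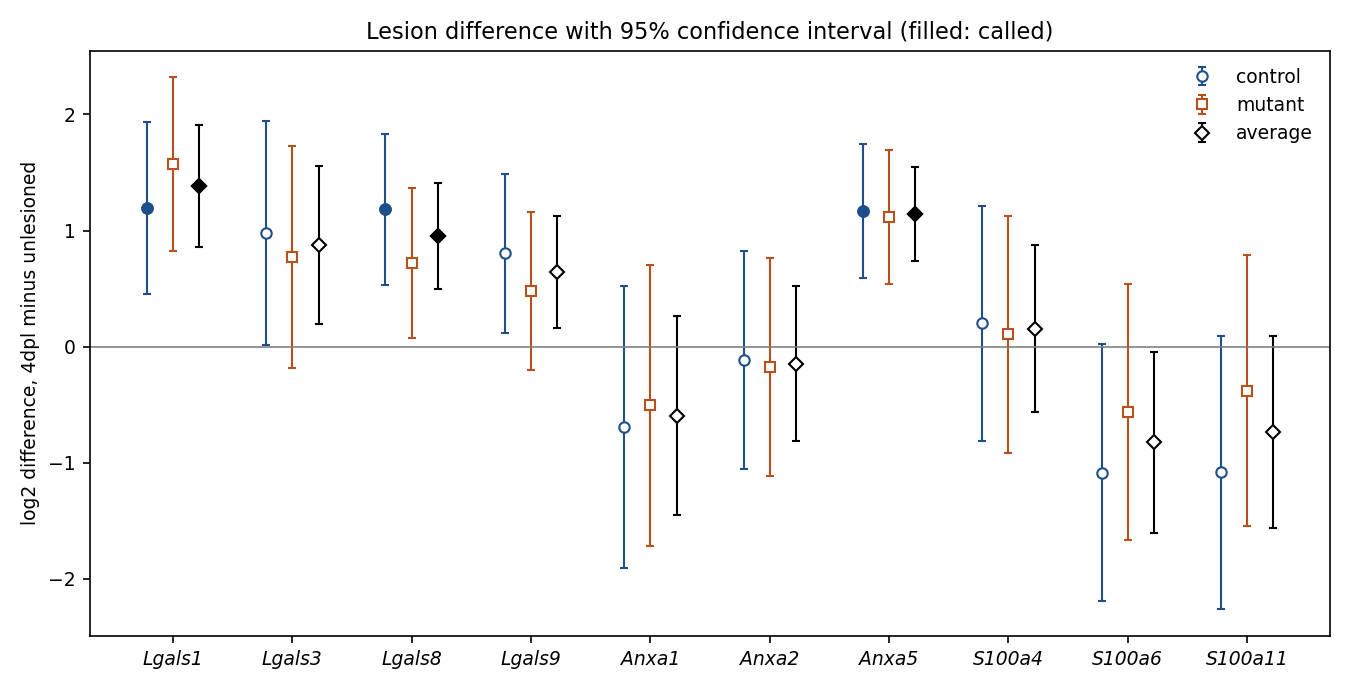
Log2 difference between 4dpl and unlesioned tissue for each gene in control, in mutant and averaged over genotypes, with 95% confidence intervals from the edgeR fit. Filled symbols are called genes, which are Lgals1, Lgals8 and Anxa5 in control and on average, and no gene is filled in mutant.

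Summed markers of several cell types differed between the states beside the genes that rose. The microglial markers (8 of 8 genes tested, none at 0) summed to between 1297 and 2717 CPM in control unlesioned libraries, 3528 and 6374 CPM in control at 4dpl, 1282 and 4404 CPM in mutant unlesioned libraries and 3657 and 6042 CPM in mutant at 4dpl, and 6 of the 8 were called higher on average, where 14.2% of all genes were. The macrophage markers (8 of 8 tested, none at 0) summed to between 9708 and 19115, 16573 and 24578, 7093 and 20089, and 11415 and 27080 CPM in the same order of groups, with 2 of 8 called higher on average. Of these 8, Cd163, Cybb and Ifitm6 had average log2 differences below 0, at -0.19, -0.11 and -0.70, and the others lay above 0. Fibroblast and meningeal markers (7 of 7 tested, none at 0) summed to at most 202 CPM, with 26.6 to 45.6 CPM in control unlesioned libraries and 94.8 to 202 CPM in control at 4dpl, against 34.5 to 79.2 and 48.4 to 65.4 CPM in mutant. Astrocyte markers (6 of 6 tested, none at 0) summed to between 170 and 257 CPM in the 6 unlesioned libraries and between 289 and 554 CPM in the 6 lesioned ones, without overlap. Oligodendrocyte markers summed to between 16392 and 20618 CPM in control unlesioned libraries and 23393 and 34263 CPM in control at 4dpl, and progenitor markers (6 of 6 tested, none at 0) to between 215 and 218 and between 305 and 407 CPM, while in mutant the ranges of both lists overlapped between the states. Single markers did not all follow these sums in control. Opalin, Cldn11 and the progenitor marker Olig2 had log2 differences of -0.48, -0.39 and -1.12, and the other markers of both lists lay above 0. By edgeR, 1 of the 8 oligodendrocyte and 2 of the 6 progenitor markers were called higher in control. The median log2 difference of the neutrophil markers was below 0, at -0.92 on average, with 1 of 7 called lower, where 18.6% of all genes were. The part of these cell types in the differences of Lgals1, Lgals8 and Anxa5 was not tested.

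The promoters of Lgals8 and Anxa5 are shown because these were the 2 members whose lesioned and unlesioned libraries did not overlap across both genotypes. RefSeq promoter windows of 300 bases (GRCm38.p6, 250 before and 50 after the annotated start) were at hand for 9 of the 10 genes, and were searched on both strands for the AP-1 motif TGANTCA and the E-box CACGTG. Neither motif was found in these 2 windows, at chr13:12461689-12461988 and chr3:36475838-36476137, both read on the reverse strand and printed in lower case throughout. The Lgals8 window lies inside the counted gene, which begins at 12464944 on that strand, so it belongs to an internal start. The Anxa5 window covers the beginning of its gene, at 36475894.
Lgals8: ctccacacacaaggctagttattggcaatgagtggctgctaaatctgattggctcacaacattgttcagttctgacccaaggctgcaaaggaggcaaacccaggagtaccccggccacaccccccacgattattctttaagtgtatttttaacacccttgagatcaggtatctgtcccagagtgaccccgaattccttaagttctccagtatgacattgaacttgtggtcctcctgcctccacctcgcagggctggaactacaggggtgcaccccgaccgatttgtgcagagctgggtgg
Anxa5: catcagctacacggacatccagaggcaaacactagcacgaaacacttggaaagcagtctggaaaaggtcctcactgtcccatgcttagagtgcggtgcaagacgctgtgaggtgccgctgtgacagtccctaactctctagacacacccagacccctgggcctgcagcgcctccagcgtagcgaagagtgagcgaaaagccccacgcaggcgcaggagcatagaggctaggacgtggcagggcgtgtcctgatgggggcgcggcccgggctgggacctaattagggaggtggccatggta
The window of Lgals8 held 6 CpG and that of Anxa5 16, beside a median of 7 over the 32534 promoters of the table. No match says only that these letters are not in this window.

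The second question was how the genes differed between the genotypes. Lgals1, Lgals3 and S100a4 were lower in mutant in both states, with log2 differences between -0.75 and -1.28, but no member passed the thresholds. None of the 10 was called unlesioned or at 4dpl, where 0% of all genes tested were called in either direction, and 2 of the 10 had an unadjusted p-value under 0.05 in each state, against 5.22% and 6.92% of all genes. DESeq2 called 17 genes higher and 28 lower in mutant unlesioned, and 202 higher and 25 lower at 4dpl, with none of the 10 members among them. Over the 10 genes the median log2 difference between mutant and control was -0.17 unlesioned and -0.22 at 4dpl, with 7 of 10 below 0 in each state, beside a median over all genes of 0.02 and 0.05.

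Lgals1 was the member with the smallest p-value. Its unlesioned mutant libraries, from 46.1 to 72.4 CPM, lay below all unlesioned control libraries, from 112 to 164 CPM, and its mutant libraries at 4dpl, from 88.0 to 230.2 CPM, lay below those of control, from 234 to 414 CPM. The log2 difference was -1.28 ± 0.35 (SE) unlesioned (edgeR, adjusted p = 0.693) and -0.90 ± 0.34 at 4dpl (edgeR, adjusted p = 0.538). Of all genes tested, 1.02% had mutant libraries wholly below the control libraries in both states, and of the 10 members Lgals1 alone did. The genotype difference averaged over both states was a contrast chosen after these values were seen. For it, the edgeR fit over all 12 libraries called no gene in all (0%), and DESeq2 called 198 genes higher and 253 lower. For Lgals1 this averaged difference was -1.09 ± 0.24 (edgeR, adjusted p = 0.294), which edgeR did not call and DESeq2 did (adjusted p = 0.00546). It was -1.18 ± 0.34 for S100a4 (edgeR, adjusted p = 0.315; DESeq2, adjusted p = 0.0356) and -0.86 ± 0.32 for Lgals3 (edgeR, adjusted p = 0.407; DESeq2, adjusted p = 0.111).

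S100a4 was at 2.84 to 6.53 CPM in mutant unlesioned libraries, wholly below the 8.50 to 12.6 CPM of control, whereas at 4dpl the genotypes overlapped. Lgals3 in turn overlapped unlesioned and did not overlap at 4dpl, where the highest mutant library had 902 CPM and the lowest control library 927 CPM. Anxa5 was also wholly lower in mutant at 4dpl, at 441 to 468 CPM against 517 to 590.2 CPM, with a log2 difference of -0.31 ± 0.27 (SE; edgeR, adjusted p = 0.918). In all, 2 of 10 members were wholly lower in mutant unlesioned, where 6.28% of all genes were, and 3 of 10 at 4dpl, where 5.44% were, and no member was wholly higher in either state, where 4.09% and 7.34% of genes were. The same library, mutant 4dpl replicate 3, had the lowest Lgals1 and Lgals3 of its group and the highest oligodendrocyte marker sum of the 12, at 68816 CPM against 25489 and 28671 CPM in the other mutant libraries at 4dpl, and the part of that makeup in the genotype values was not tested.

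The remaining members gave wide intervals around 0. For Anxa1 the log2 difference between mutant and control was 0.48 ± 0.56 (SE) unlesioned and 0.66 ± 0.57 at 4dpl, with a 95% confidence interval at 4dpl from -0.55 to 1.88. For S100a11 it was -0.14 ± 0.54 unlesioned and 0.57 ± 0.54 at 4dpl. The change after lesion was then compared between the genotypes as an interaction, and none of the 10 genes passed the test, where 0% of all genes did (edgeR, adjusted p = 0.9999 for each of the 10). None of the 10 had an unadjusted p-value under 0.05 for the interaction, against 3.81% of all genes, and DESeq2 called 0 genes. The interaction was -0.46 for Lgals8, with a 95% confidence interval of -1.37 to 0.45, 0.38 for Lgals1 (-0.65 to 1.41) and -0.05 for Anxa5 (-0.86 to 0.75). For Lgals1, Lgals8 and Anxa5 these intervals were each wider than the lesion difference in control.

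**Figure D4:**
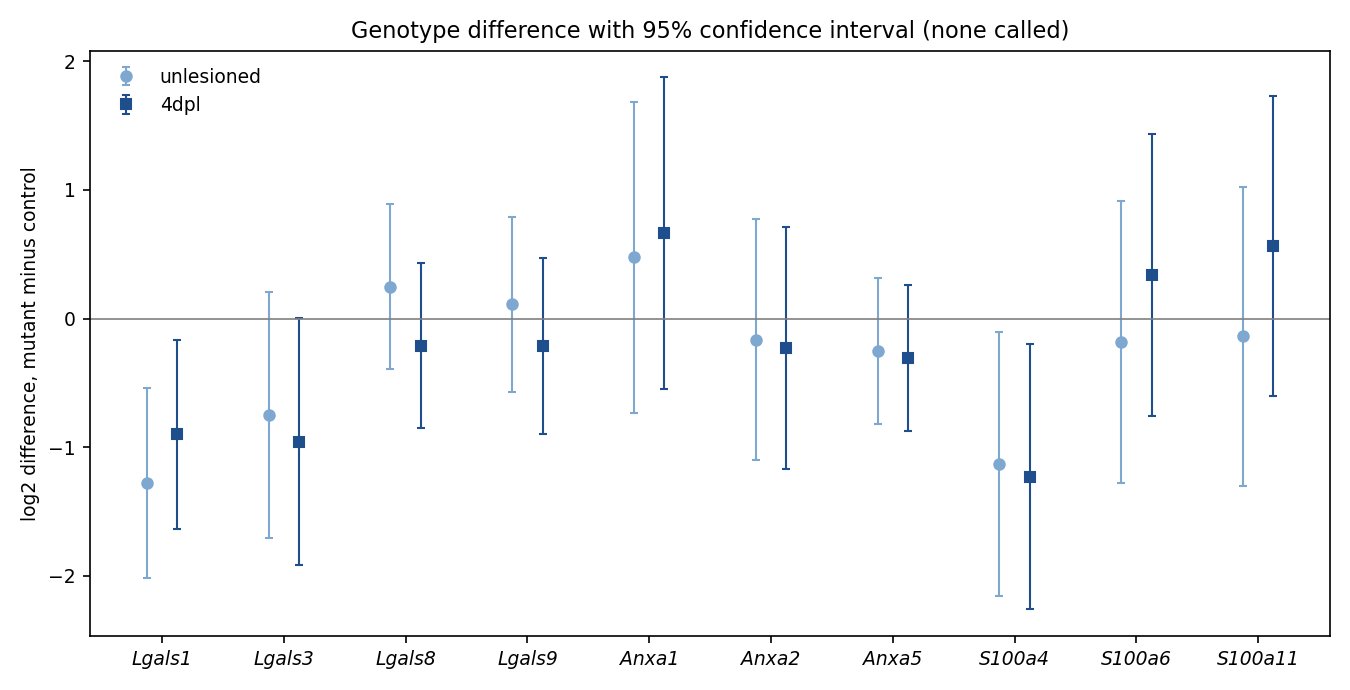
Log2 difference between mutant and control for each gene, unlesioned and at 4dpl, with 95% confidence intervals from the edgeR fit over all 12 libraries. The interval of Lgals1 and of S100a4 lies below 0 in both states, and no gene passed the adjusted threshold.

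The third question was how the 10 genes varied together from library to library, which the group means do not show. Likeness was measured as the root mean square difference between the log2 CPM of a pair of genes over the 12 libraries after centring each gene on its own mean, and is a description with no test, since the points share libraries. S100a6 and S100a11 were the most alike, 0.19 apart on the log2 scale, and Lgals8 and Lgals9 followed at 0.22 and Lgals8 and Anxa5 at 0.27. Anxa1 was 0.32 from S100a11, 0.44 from S100a6 and 0.50 from Anxa2, but 1.16 from Anxa5 and 1.42 from Lgals1. Anxa1, S100a6 and S100a11 were thus within 0.44 of each other and at least 0.95 from each of the 4 galectins and Anxa5. Anxa2 lay between, 0.46 to 0.50 from those 3 genes but also 0.66 from Lgals3 and 0.67 from Lgals9, which is closer than Lgals3 was to Lgals8, at 0.73, or Lgals1 to Lgals8, at 0.82. S100a4 was closest to Anxa2 and Lgals3, at 0.59 each. These groupings were chosen after the values were seen.

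The libraries in which Anxa1, S100a6 and S100a11 were high were those rich in neutrophil transcripts. S100a8, whose product forms calprotectin, the abundant calcium-binding complex of neutrophils, was at 26706, 32675 and 15494 CPM in control unlesioned libraries and 9937, 8629 and 9394 CPM in control at 4dpl. In mutant it was at 8664, 35425 and 22759 CPM unlesioned and 6371, 33056 and 9701 CPM at 4dpl. S100a8 and S100a9 together made up between 1.18% and 8.13% of all counts of a library. Its highest 5 libraries, namely replicates 1 and 2 of control unlesioned, replicates 2 and 3 of mutant unlesioned and replicate 2 of mutant 4dpl, were also the highest 5 of Anxa1, S100a6 and S100a11. S100a8 lay 0.24 from S100a6, 0.25 from S100a11 and 0.42 from Anxa1 on the log2 scale. The neutrophil granule gene Ngp lay 0.20 from Anxa1, 0.21 from S100a11 and 0.33 from S100a6.

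The neutrophil markers (7 of 7 tested, none at 0) summed to between 14964 and 42333 CPM in control unlesioned libraries, 11763 and 16293 CPM in control at 4dpl, 13147 and 49427 CPM in mutant unlesioned libraries and 8962 and 44037 CPM in mutant at 4dpl. On average over the genotypes 1 of the 7, Elane, was called lower, where 18.6% of all genes were. The median log2 difference of the list was -0.92, beside -0.82 for S100a6, -0.73 for S100a11 and -0.60 for Anxa1. The part of neutrophils in the values of these genes was not tested.

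**Figure D5:**
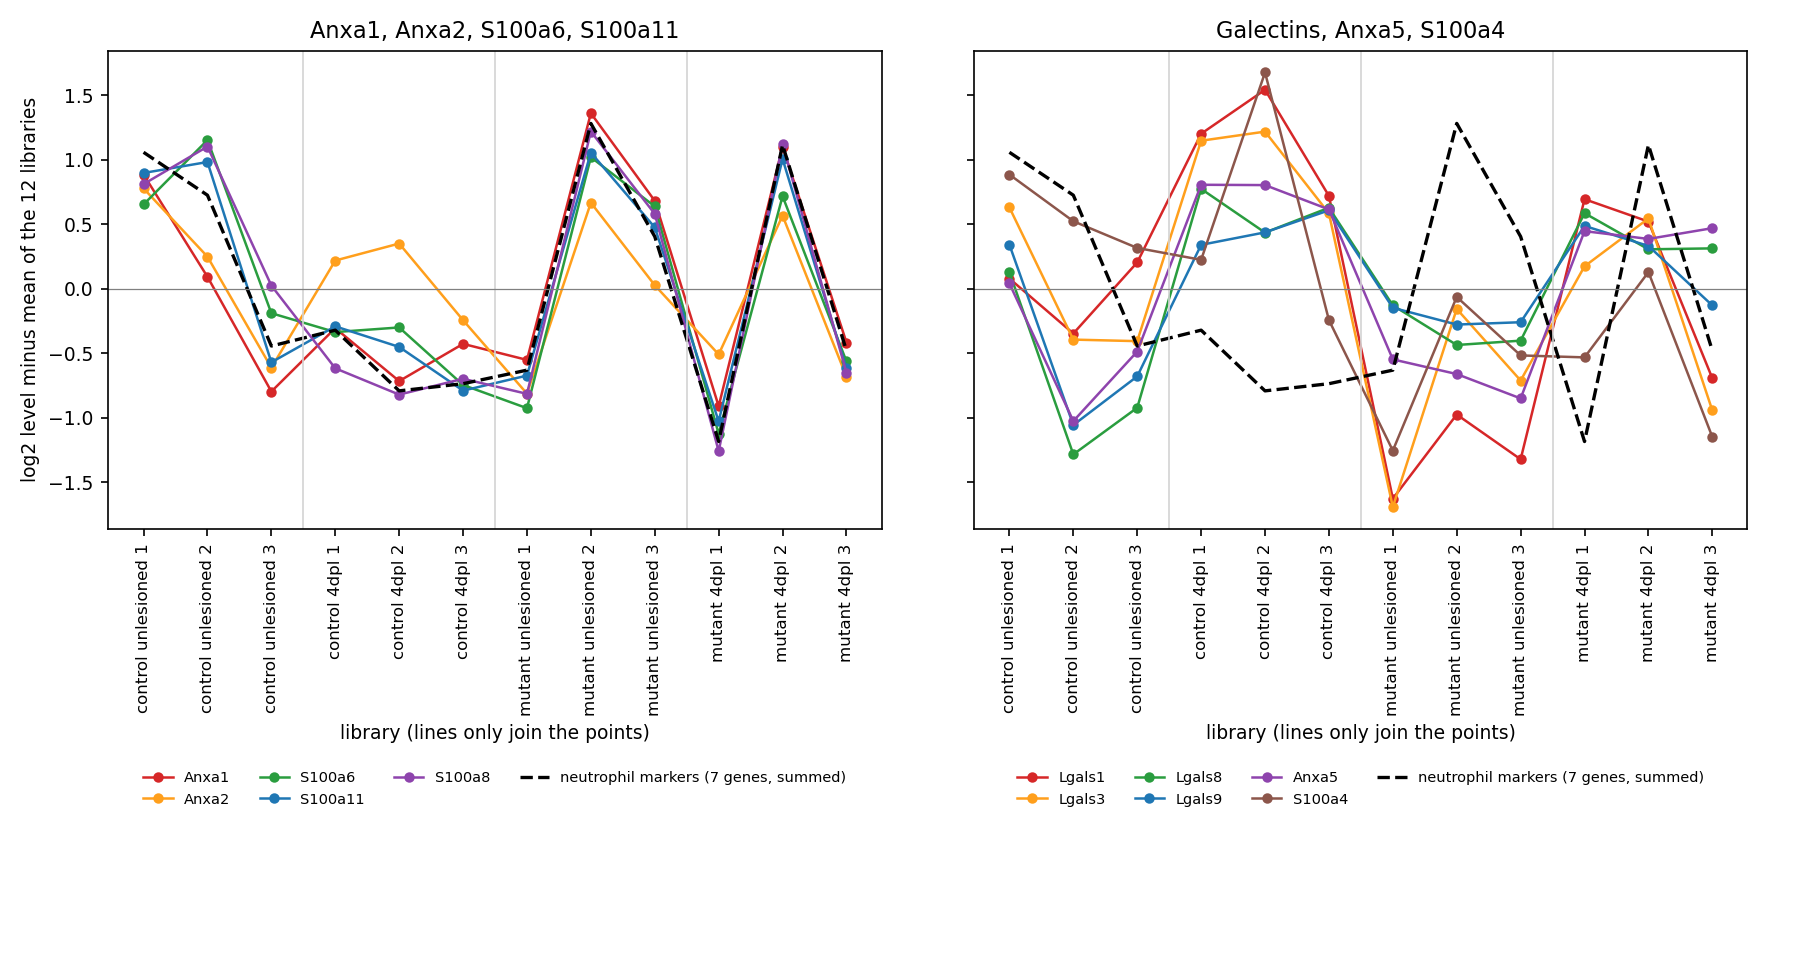
Log2 level of each gene minus its own mean over the 12 libraries, with 1 point per library, lines that only join the points, and the summed neutrophil markers as a dashed line in both panels. Anxa1, Anxa2, S100a6 and S100a11 (left, with S100a8) rise and fall with the dashed line in the mutant libraries, whereas Lgals8 and Anxa5 (right) are above 0 in every lesioned library.

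The promoters of Anxa2, S100a6 and S100a11 are printed because their windows were the only ones of the 9 that held a searched motif, in capitals. The AP-1 motif was found in 2 of the 9 promoters, beside 7.79% of the 32534 promoters of the table, and the E-box in 2 of the 9, beside 7.17%. Anxa2 (chr9:69453433-69453732, forward strand) held the AP-1 motif 95 bases before the annotated start, S100a11 (chr3:93520246-93520545, forward strand) held it 136 and 38 bases before the start and an E-box 223 bases before it, and S100a6 (chr3:90612644-90612943, forward strand) held an E-box 14 bases after the start.
Anxa2: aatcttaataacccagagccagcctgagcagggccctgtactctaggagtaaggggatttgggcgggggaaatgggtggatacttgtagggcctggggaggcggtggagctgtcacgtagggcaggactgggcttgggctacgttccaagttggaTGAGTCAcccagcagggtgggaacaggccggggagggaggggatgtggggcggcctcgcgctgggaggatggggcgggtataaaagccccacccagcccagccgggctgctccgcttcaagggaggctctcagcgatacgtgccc
S100a6: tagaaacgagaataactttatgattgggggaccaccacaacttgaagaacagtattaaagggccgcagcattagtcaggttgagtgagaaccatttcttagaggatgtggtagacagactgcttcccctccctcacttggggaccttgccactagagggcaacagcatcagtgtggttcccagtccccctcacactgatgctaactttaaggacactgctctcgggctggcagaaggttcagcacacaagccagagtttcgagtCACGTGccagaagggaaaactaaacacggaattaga
S100a11: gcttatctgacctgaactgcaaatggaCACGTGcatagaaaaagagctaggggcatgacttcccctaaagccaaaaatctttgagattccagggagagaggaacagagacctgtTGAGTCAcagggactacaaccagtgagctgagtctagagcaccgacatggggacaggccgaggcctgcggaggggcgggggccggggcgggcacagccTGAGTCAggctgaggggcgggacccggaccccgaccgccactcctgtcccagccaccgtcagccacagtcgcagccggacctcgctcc
The window of Anxa1, whose level followed that of S100a11, held neither motif. A match is a description of these letters and not evidence of binding, and the genes were not tested against these motifs.

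Outside the members, the genes nearest in pattern were named for each by a fixed count of 3. Those of Anxa1 were Cd177, a surface antigen of neutrophils, Gsdme and 4930438A08Rik, from 0.15 to 0.16 apart on the log2 scale, and those of S100a11 were Mcemp1, Slpi, a leukocyte protease inhibitor, and Tmem40, from 0.13 to 0.15 apart. S100a6 was nearest to Unc119, Hp, which encodes haptoglobin, and Cebpe, a transcription factor of granulocyte maturation, from 0.16 to 0.19 apart, and Anxa2 to Pqlc1, Ostf1 and Gpi1, from 0.12 to 0.17 apart. Among the galectins, Lgals3 was nearest to Capg, an actin-capping protein gene, B3gnt8 and Tnfsf13, from 0.22 to 0.30 apart. Lgals1 was nearest to Cd93, Ftl1, the ferritin light chain gene, and Arhgap10, from 0.290 to 0.294 apart. Closer matches were found for Lgals8, with Akap10, Qrich1 and Stx7 from 0.09 to 0.11 apart, and for Lgals9, with Lyn, 5430427O19Rik and Vav1 from 0.08 to 0.10 apart. Anxa5 was nearest to Tspan31, Psmd1, a proteasome subunit gene, and Cyb5r3, from 0.12 to 0.13 apart. S100a4 was nearest to Crip1, S100a10 and Ahnak, which encodes a large scaffold bound by the annexin A2 complex, from 0.22 to 0.37 apart.

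The other genes of the 3 families are read against the 14.2% of all genes called higher and 18.6% called lower on average at 4dpl. Of the other galectins, 5 of 7 were tested and 2 were called higher on average, Lgalsl at 0.84 ± 0.24 (log2 difference, SE) and Lgals3bp, whose product binds galectin-3, at 1.15 ± 0.38, with 0 called lower. Of the 9 other annexins tested, 3 were called higher, Anxa4 at 1.73 ± 0.33, Anxa3 at 0.78 ± 0.18 and Anxa6 at 0.65 ± 0.20, and 2 were called lower, Anxa13 at -3.23 ± 0.80 and Anxa10 at -2.31 ± 0.72. These 2 genes were hardly counted, at no more than 0.498 CPM for Anxa13 and 1.66 CPM for Anxa10 in any library. Of the 12 other S100 genes tested of 15, S100a1 was called higher at 0.62 ± 0.18 and S100a3 lower at -1.39 ± 0.37. S100a8 and S100a9 were not called, at -0.93 ± 0.44 and -0.92 ± 0.44, nor were S100b at 0.63 ± 0.23 and S100a10, the annexin A2 partner, at 0.18 ± 0.26. In control alone, 1 other galectin, 2 other annexins and 0 other S100 genes were called, all higher, where 5.12% of all genes were, and in mutant alone 0 of each, where 0.135% were. The number of other S100 genes called on average went from 2 to between 1 and 6 when single libraries were left out, so that count rested on single libraries. On average the number ran from 1 to 3 for the other galectins and from 3 to 6 for the other annexins. In control it ran from 0 to 2 for the other galectins, 0 to 4 for the other annexins and 0 to 1 for the other S100 genes.

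Among 18 partners and receptors of these proteins, 7 were called higher and 2 lower on average at 4dpl, where 14.2% and 18.6% of all genes were, and 5 were called higher and 0 lower in control, where 5.12% and 5.01% were. With single libraries left out, the number called in either direction ran from 7 to 11 on average and from 0 to 9 in control. In mutant 0 were called, where 0.135% of all genes were. Those that rose on average included Cd93 at 1.64 ± 0.28, Havcr2, which encodes TIM-3, the receptor of galectin-9, at 1.46 ± 0.30, Mertk, a receptor for the engulfment of dying cells, at 1.39 ± 0.29, and Itgb1, the integrin beta-1 chain that carries galectin ligands, at 1.34 ± 0.28 (log2 difference, SE). Mgat5 and Mgat4a, glycosyltransferases that build the branched sugar chains bound by galectins, rose by 0.77 ± 0.18 and 0.80 ± 0.22, and Cacybp, which encodes the calcyclin-binding protein, rose by 0.75 ± 0.16. Plg, the plasminogen gene, fell by 2.56 ± 0.75 but was hardly counted, at no more than 0.938 CPM in any library. Fpr2, the annexin A1 receptor gene, was at -0.78 ± 0.35 and not called. The lists were called in 0 cases in any genotype contrast or in the interaction by edgeR.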

How the data were processed

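The authors prepared RNA from Percoll-enriched spinal cord cell suspensions, aligned the reads to the mouse genome (GRCm38, mm10), counted them on the exons of Ensembl genes with featureCounts, and deposited raw counts, not normalized, 1 table per library. The study's methods name BWA as the aligner and the submitters' processing notes name STAR. Groups came from the sample labels. Whether the 3 libraries of a group came from separate mice is not given in the sample labels, and p-values measure the spread between these libraries.

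Differences were tested on the raw counts by edgeR 4.0.16 (R 4.3.3), after the filter filterByExpr and TMM scaling. A single model with a mean for each group was fitted to all 12 libraries, and the contrasts were tested by quasi-likelihood with Benjamini-Hochberg adjustment over 31109 genes. Calls required p under 0.01 and adjusted p under 0.05. Standard errors came from the log2 difference and the F statistic. Levels per length are CPM divided by exonic kilobases. DESeq2 1.42.0 and limma 3.58.1 (voom with sample weights), other scalings, filters, blocks and thresholds, and leaving out each library were alternatives. Fits were tested on simulated data. Libraries of a group differed beyond sampling noise.

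The members, lists and motifs were chosen with earlier results of these data known. All 10 members are named with every library. Of the other lists, genes called in a lesion contrast are named, at most 8 per list, with S100a8, S100a9, S100a10, S100b and Fpr2 whatever their values. Promoters are those of RefSeq. Protein sequences and a promoter of Lgals1 were not analysed here.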

Additional observations from a re-analysis of the deposited data

How the results depend on the processing

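Precision was limited by 3 libraries per group and not by depth. Lgals1, Lgals8 and Anxa5 were called higher at 4dpl averaged over genotypes in all 12 fits without one library and in all 8 other fits. The number of members called in control (3) was 0 with edgeR on the groups compared and 5 with voom, and 0 to 5 with one library left out. Of all genes in control, 613 were called higher and 549 lower on the groups compared, and 4836 and 4827 with voom, against 1592 and 1558 in the fit used here. In mutant (0) the number of members called was 2 without a filter on low counts, 2 with DESeq2, 2 with edgeR's newer quasi-likelihood method, 2 at an adjusted p of 0.10 and 3 with voom, and 0 to 3 with one library left out, reaching 3 without control unlesioned replicate 1 and 2 without mutant unlesioned replicate 1. Of all genes in mutant, 7 were called higher and 35 lower in the fit used here. The numbers were 317 and 630 without a filter, 1333 and 3962 with DESeq2, 1374 and 3056 with the newer method and 3495 and 3305 with voom. On average (3) the number of members called was 5 without a filter, 5 with voom, 6 at an adjusted p of 0.10 and 7 with the replicate block by label number, and 3 to 5 with one library left out, reaching 5 without control unlesioned replicate 1, mutant 4dpl replicate 2 or mutant 4dpl replicate 3. Of all genes on average, 4423 were called higher and 5771 lower in the fit used here. The numbers were 5351 and 7763 without a filter, 6382 and 8043 with voom and 4863 and 4874 with that block. The unlesioned genotype, 4dpl genotype and interaction contrasts called 0 members in every fit, and the genotype contrast averaged over both states, added after the data were seen, called 2 members with DESeq2 and 0 otherwise. For that averaged contrast DESeq2 called 198 of all genes higher and 253 lower, voom called 80 and 22, and the fit used here called no gene. The cause of these changes between fits was not tested. RLE scaling moved the median log2 difference of all genes in mutant from -0.18 to -0.32, and requiring 10 counts in every library, which tests 17528 genes, moved the median in control from -0.36 to -0.05.

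The deviations of same-numbered libraries correlated at 0.19, 0.05 and 0.19 in control, where each library correlated best with its own number, and at -0.03, 0.07 and -0.07 in mutant, where this did not hold. Since not every pair correlated, the replicate block stayed an alternative, and the numbers are at most a hint of pairing in control. With the replicate block by label number 4 members were called in control (S100a6 lower in addition), 0 in mutant and 7 on average, the additions being Lgals3 and Lgals9 higher and S100a6 and S100a11 lower. With the replicate block by the number in the file names, 2 were called in control, 0 in mutant and 4 on average.

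Only values that were not called changed sign. In control, Anxa2 (-0.12) became 0.092 with voom and 0.47 with the replicate block by file number, and S100a4 (0.20) became -0.059 with 10 counts in every library and -0.035 with the replicate block by label number. In mutant, S100a4 (0.11) became -0.043 with RLE, -0.23 with 10 counts in every library, -0.042 with DESeq2, -0.13 with the groups compared only and -0.19 with the replicate block by file number. On average, Anxa2 (-0.15) became 0.018 with voom and S100a4 (0.15) became -0.15 with 10 counts in every library. Anxa5 in the unlesioned genotype contrast (-0.25) became 0.014 with voom. The interaction became -0.14 for Lgals1, -0.91 for Anxa1, -0.092 for S100a6 and -0.44 for S100a11 with the replicate block by file number, -0.022 for Anxa1 and 0.13 for S100a4 with the replicate block by label number, and -0.17 for Anxa1 and 0.10 for S100a4 with voom.

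Leaving out one library changed the sign within these ranges. In control they were -0.40 to 0.28 for Anxa2 and -0.57 to 0.58 for S100a4. In mutant they were -1.30 to 0.014 for Anxa1, -0.64 to 0.25 for Anxa2, -0.25 to 0.43 for S100a4 and -1.23 to 0.074 for S100a11. On average they were -0.37 to 0.076 for Anxa2 and -0.22 to 0.33 for S100a4. Unlesioned genotype values ran from -0.019 to 0.78 for Lgals8, -0.15 to 0.63 for Lgals9, -0.027 to 0.98 for Anxa1, -0.58 to 0.20 for Anxa2, -0.49 to 0.052 for Anxa5, -0.58 to 0.19 for S100a6 and -0.58 to 0.19 for S100a11. Those at 4dpl ran from -0.17 to 1.003 for Anxa1, -0.37 to 0.66 for S100a6 and -0.31 to 0.91 for S100a11. The interaction ran from -0.64 to 0.19 for Lgals3, -0.63 to 0.69 for Anxa1, -0.55 to 0.35 for Anxa2, -0.36 to 0.18 for Anxa5, -0.55 to 0.70 for S100a4, -0.18 to 0.92 for S100a6 and -0.16 to 1.14 for S100a11.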
